A study of Mus musculus with 8 samples.

Results

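The acrosome and sperm-egg fusion genes described here are Acr, Acrv1, Acrbp, Spaca1, Spaca3, Zpbp, Zpbp2, Izumo1 and Spam1, which were chosen by name. They are 9 of 27962 gene names on the array, and all spots of the non-control type that carry one of these names were used, which gave 12 probes. A probe is a stretch of 60 bases fixed to the array, and Acrbp, Spaca1 and Zpbp2 had 2 probes each while the other 6 genes had 1. After the filter on dim probes, 11 of the 12 remained, so each of the 9 genes was measured by at least 1 probe.

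Di-(2-ethylhexyl) phthalate (DEHP), a plasticiser, was given daily by gavage to 4 male C57BL/6J mice for 21 days, in corn oil and at 200 mg/kg/day, and 4 further males received corn oil alone as the vehicle. The mice were 18 weeks old at the first dose and 21 weeks old at the end, and both groups shared strain, sex, age, gavage and oil. RNA came from areas rich in Sertoli cells, the somatic cells that surround developing germ cells, which were laser-captured from 10 µm sections of the right testis. The submitters' labels call these areas Sertoli-cell-rich, while the text of the capture protocol in the same labels speaks of Leydig cells, and no cell type was isolated in pure form. Each DEHP mouse was hybridised against 1 vehicle mouse on a pair of 2-colour arrays with the dyes exchanged, 8 arrays in all. Pairs carry the number of the DEHP mouse, and DEHP mice 1, 2, 3 and 4 met vehicle mice 2, 3, 4 and 1 in that order.

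The acrosome is a vesicle, formed from the Golgi apparatus of round spermatids, that caps the sperm nucleus and holds enzymes and binding proteins for passage through the coats of the egg. Its contents are released by exocytosis near the egg, and proteins that the release exposes on the sperm surface take part in adhesion to the egg and in fusion with it. The genes are known for transcription in male germ cells, mostly after meiosis, and Sertoli cells are not a known source of them. In such bulk samples, fewer cells of a type and less RNA per cell cannot be told apart.

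Each value below comes from the stretch of transcript that a probe reads, and the probes of the 3 genes with the widest spread between mice, Acrv1, Spaca1 and Izumo1, are shown together with the second Spaca1 probe, which lies in another stretch of the same gene. The sequences are those listed in the array design, and no letter is capitalised because no part of a probe was singled out.
Acrv1: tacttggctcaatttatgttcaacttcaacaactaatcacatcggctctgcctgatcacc
Spaca1: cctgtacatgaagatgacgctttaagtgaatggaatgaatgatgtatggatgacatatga
Spaca1, other probe: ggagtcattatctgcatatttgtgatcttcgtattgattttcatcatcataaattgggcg
Izumo1: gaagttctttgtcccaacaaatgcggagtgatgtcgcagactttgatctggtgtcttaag
In the array design's mouse build mm7, the Acrv1 probe lies at chr9:36625076-36625136 on the plus strand. The brightest Spaca1 probe lies at chr4:34306785-34306844 on the minus strand, and the other probe spans 570 bases at chr4:34306956-34307525, more than the length of the probe. The Izumo1 probe spans 746 bases at chr7:41800312-41801057 on the plus strand. Exons and untranslated regions in mm7 were not annotated here.

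The upstream sequences of the same 3 genes are shown for the matches that a motif search gave in them. Printed are the 250 bases before the start site in RefSeq's annotation of build GRCm38.p6, for Spaca1 the first of 2 listed. Capitals mark matches to TGACGTCA or its shorter core TGACG in Spaca1 and Izumo1 and to GTGTGT in Acrv1, on either strand. The letters TGACGTCA are the binding element of the CREB and CREM factors, of which CREM is required for spermatid genes in mice, and GTGTGT is a repeat known from the mouse Acrv1 promoter.
Acrv1, chr9:36692970-36693219, plus strand: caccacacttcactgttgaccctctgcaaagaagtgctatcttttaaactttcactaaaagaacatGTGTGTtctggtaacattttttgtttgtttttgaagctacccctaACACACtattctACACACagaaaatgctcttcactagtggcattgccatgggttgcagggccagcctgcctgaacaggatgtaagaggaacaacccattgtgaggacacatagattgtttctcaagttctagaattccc
Spaca1, chr4:34050066-34050315, minus strand: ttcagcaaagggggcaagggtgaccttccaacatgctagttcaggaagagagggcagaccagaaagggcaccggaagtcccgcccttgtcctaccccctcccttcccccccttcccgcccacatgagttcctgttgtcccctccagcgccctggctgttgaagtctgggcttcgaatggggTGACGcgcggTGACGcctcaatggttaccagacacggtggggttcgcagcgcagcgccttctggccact
Izumo1, chr7:45621561-45621810, plus strand: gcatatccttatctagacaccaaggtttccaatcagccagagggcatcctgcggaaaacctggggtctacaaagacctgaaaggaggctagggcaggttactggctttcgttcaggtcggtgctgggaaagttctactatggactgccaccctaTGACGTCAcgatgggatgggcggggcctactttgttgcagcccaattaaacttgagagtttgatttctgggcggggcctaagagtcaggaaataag

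Promoter entries were found for 8 of the 9 genes, Acr being the one with none, and each was searched from 250 bases before to 50 bases after the start site. Spaca1 and Spaca3 had 2 promoters listed each, of which only the first listed was searched, as for all genes. TGACGTCA occurred in 1 of 8, Izumo1, with its first base 96 bases before the start, against 1.88% of 27025 genes. TGACG, which lies within that element, occurred in 5 of 8, namely Acrbp, Spaca1, Spaca3, Zpbp2 and Izumo1, against 21% of all genes. GTGTGT occurred in 1 of 8, Acrv1, in which it was matched 3 times, against 17.2% of all genes, and the TATA box letters TATAAA occurred in 0 of 8, against 14.2%. A match describes letters in a window and is no measured binding site.

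All 9 genes gave signal above background in every captured sample. For each of the 11 probes kept, the spot was well above background in 16 of 16 channels, which are 2 dyes on each of 8 arrays. Net signals were 121 to 545 intensity units for the Izumo1 probe, at least 5.25 times the median net signal of the array, and 45347 to 134484 for the brightest Zpbp2 probe. The remaining Zpbp2 probe, designed on a cDNA clone, was well above background in 0 of 16 channels, with net signals of 9.63 to 22.1, and was left out. Brightness also depends on the probe, so these values do not rank the genes. For markers and for the lists below, above background means the looser filter, well above background in at least 4 of 8 channels of a group. By it, 22 of 24 Sertoli cell markers on the array were above background and Gata4 and Dmrt1 were not. Some of the 22 were dim, such as Gata1 with a mean log2 intensity of 7.06, beside 6.98 for the Zpbp2 probe left out. All 18 round spermatid and all 18 elongating spermatid markers were also above background, as were 18 of 20 spermatocyte and 10 of 12 macrophage and leukocyte markers. Of 13 Leydig cell markers, 9 were above background, Insl3 among them, and Cyp11a1, Hsd3b6, Hsd17b3 and Lhcgr were not.

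DEHP and vehicle did not differ at the threshold for any acrosome or fusion gene. In limma on the 4 pair ratios, with p-values adjusted by Benjamini-Hochberg over all 23009 probes kept, 0 of 9 genes had an adjusted p under 0.05, against a background of 0% of all probes. At an unadjusted p under 0.05, 0 of 9 genes were counted, against 4.59% of all probes (2.3% higher and 2.29% lower in DEHP). None of the 9 had the same sign in all 4 pairs, against 13.6% of all probes (6.55% higher and 7.08% lower in all 4). The mean ratio was above 0 for 3 of 9 genes, Acr, Acrv1 and Spam1, against 48.9% of all probes. The median of the 9 mean log2 ratios of DEHP over vehicle was -0.024, against -0.0020 for all probes. When array ratios were centred on their median in place of loess, that median was 0.15 and 7 of 9 means were above 0, so no direction for the genes as a group is given. Of the alternative settings, 16 gave a test, 15 of them for all 9 genes and the authors' deposited ratios for 4, and the smallest adjusted p among these was 0.499. In limma, with none passing adjustment, unadjusted p-values under 0.05 were found for Acrbp (0.0104) and Zpbp (0.0196) with DEHP in Cy5 alone, for Zpbp without pair 2 (0.0393) and for Izumo1 without pair 4 (0.0485).

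**Figure D1:**
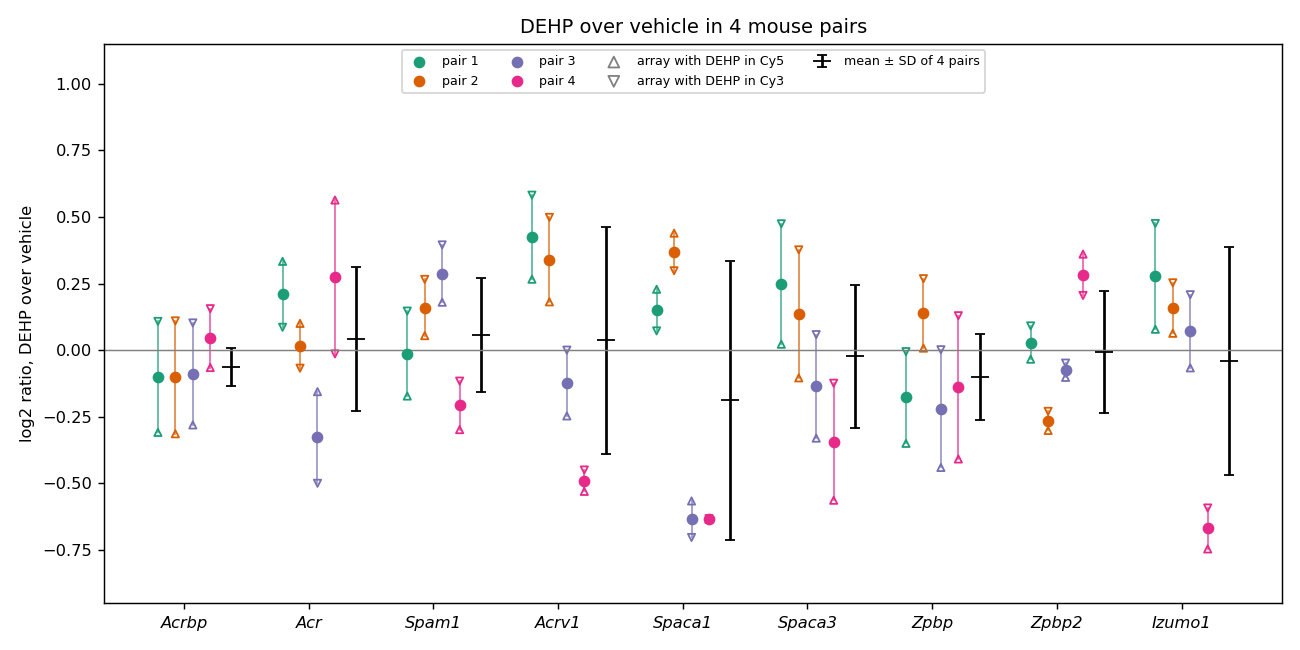
Log2 ratio of DEHP over vehicle (y axis) for the brightest probe of each gene (x axis) in 4 mouse pairs; filled circles are pair means, triangles are the single arrays with DEHP in Cy5 (up) or Cy3 (down), and black bars are the mean ± SD of the 4 pairs. Every gene has pairs on both sides of 0, and Spaca1, Acrv1 and Izumo1 have the widest spread between pairs.

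Beginning with the enzymes of the acrosome, Acr encodes acrosin, a serine protease stored as the inactive proacrosin. Its log2 level, on the scale of normalised channel intensity, was 13.26, 13.15, 13.09 and 13.35 in DEHP mice 1 to 4, against 13.08, 13.05, 13.13 and 13.42 in vehicle mice 1 to 4. Vehicle mouse 4 was the highest of the 8 and vehicle mouse 2 the lowest, and the groups overlapped. The 4 pair ratios were 0.21, 0.016, -0.33 and 0.27, with a mean of 0.043 ± 0.27 (SD, n = 4 pairs). As a fold this is 1.03, with a 95% interval in limma of 0.843 to 1.26 and an adjusted p of 0.970.

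Spam1, also known as PH-20, encodes the hyaluronidase on the sperm surface and in the acrosome that loosens the matrix between cumulus cells. The log2 level was 11.33, 11.52, 11.84 and 11.80 in DEHP mice 1 to 4, against 12.01, 11.34, 11.36 and 11.55 in vehicle mice 1 to 4. Vehicle mouse 1 was the highest and DEHP mouse 1 the lowest, with vehicle mouse 2 only just above it. Pair ratios of -0.013, 0.16, 0.29 and -0.21 gave a mean of 0.057 ± 0.22 (SD, n = 4 pairs), a fold of 1.04 with a limma interval of 0.882 to 1.23 and an adjusted p of 0.947.

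Acrbp encodes the proacrosin-binding protein, which holds proacrosin in the acrosome and controls its processing. Its brightest probe had the narrowest spread of the 9 genes, with log2 levels of 14.61, 14.58, 14.52 and 14.64 in DEHP mice 1 to 4, against 14.60, 14.71, 14.68 and 14.61 in vehicle mice 1 to 4. The ranges overlapped, although DEHP mice 2 and 3 were below all 4 vehicle mice. This order changed with median centring in place of loess. DEHP mice 1, 2 and 4, at 14.85, 14.67 and 14.73, were then above all 4 vehicle mice, whose highest level was 14.64. Vehicle mouse 2, the highest mouse with loess, was then the lowest. With loess, pair ratios were -0.10, -0.10, -0.090 and 0.045, and the mean of -0.062 ± 0.072 (SD, n = 4 pairs) is a fold of 0.958, with a limma interval of 0.880 to 1.04 and an adjusted p of 0.907. The sign of the ratio differed between the dye orientations. With DEHP in Cy5 it was -0.31, -0.31, -0.28 and -0.066 in pairs 1 to 4, and with DEHP in Cy3 it was 0.11, 0.11, 0.10 and 0.16, so that 0 of 4 pairs had the same sign in both orientations. The other Acrbp probe, at chr6:125076900-125076959 in mm7 where the brightest lies at chr6:125088800-125088859, gave pair ratios of 0.16, -0.0023, 0.31 and -0.14, opposite in sign in 3 of the 4 pairs.

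Among the structural and membrane proteins, Acrv1 encodes SP-10, a protein of the acrosomal matrix. It had the widest spread of the 9 genes, with log2 levels of 13.70, 14.01, 13.88 and 13.91 in DEHP mice 1 to 4, against 14.40, 13.28, 13.67 and 14 in vehicle mice 1 to 4. All 4 DEHP mice lay between vehicle mouse 2, the lowest, and vehicle mouse 1, the highest. The span over the 8 mice was 1.12 log2 units, wider than that of 98.5% of all probes. Pair ratios were 0.42, 0.34, -0.12 and -0.49, the first 2 above and the last 2 below 0, with a mean of 0.037 ± 0.43 (SD, n = 4 pairs). The limma fold was 1.03, with an interval of 0.757 to 1.39 and an adjusted p of 0.984.

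Spaca1 encodes a membrane protein of the inner acrosomal membrane that is needed for the shape of the acrosome in mice. Levels were 14.93, 15.41, 14.83 and 15.18 on the log2 scale in DEHP mice 1 to 4, against 15.82, 14.78, 15.04 and 15.46 in vehicle mice 1 to 4. Here too vehicle mice 1 and 2 were the highest and the lowest of the 8, and the DEHP mice lay between them. Ratios by pair were 0.15, 0.37, -0.64 and -0.63, the last 2 at the percentiles 1.1 and 2.5 of all probes in their pair. Their mean was -0.19 ± 0.52 (SD, n = 4 pairs), a fold of 0.878 with a limma interval of 0.606 to 1.27 and an adjusted p of 0.926. The other Spaca1 probe, printed above, gave -0.0082, 0.34, -0.57 and -0.45, so both probes placed pair 2 highest and pairs 3 and 4 lowest. Without pair 2 the mean of the brightest probe was -0.37, and without pair 3 or pair 4 it was -0.039.

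**Figure D2:**
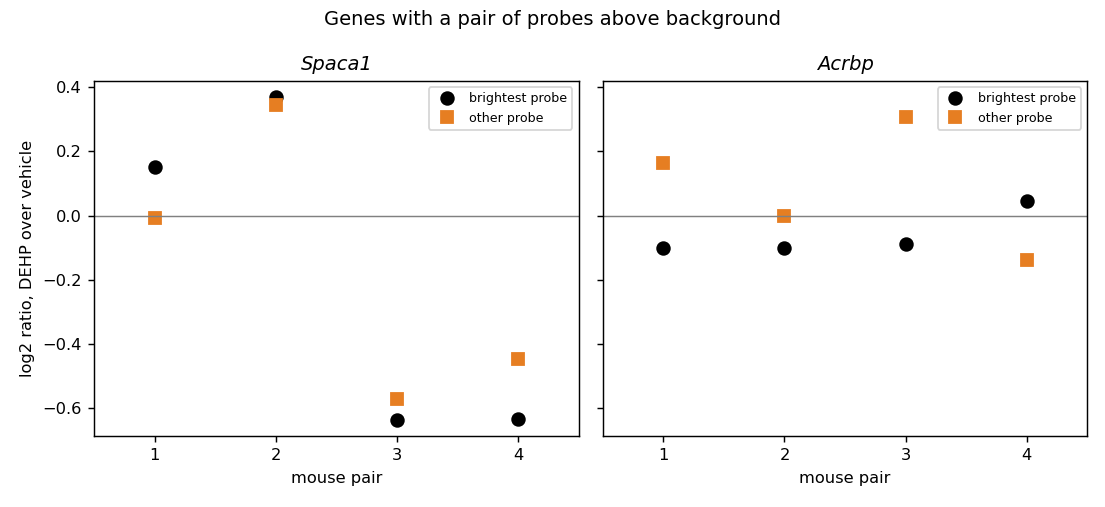
Log2 ratio of DEHP over vehicle (y axis) by mouse pair (x axis) for the genes with a pair of probes above background, Spaca1 on the left and Acrbp on the right; circles are the brightest probe and squares the other one. Both Spaca1 probes are above 0 in pair 2 and below 0 in pairs 3 and 4 and differ in sign in pair 1, and the Acrbp probes have opposite signs in pairs 1, 3 and 4.

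Spaca3 encodes a lysozyme-like protein of the acrosome. Its log2 levels were 13.94, 14.18, 14.08 and 14.02 in DEHP mice 1 to 4, against 14.37, 13.70, 14.04 and 14.22 in vehicle mice 1 to 4. The order of the extremes was that of Acrv1, with vehicle mouse 1 on top and vehicle mouse 2 at the bottom. Pair ratios of 0.25, 0.14, -0.14 and -0.34 averaged -0.024 ± 0.27 (SD, n = 4 pairs), a fold of 0.983 with a limma interval of 0.806 to 1.20 and an adjusted p of 0.984.

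Zpbp and Zpbp2 encode related zona pellucida binding proteins of the acrosomal matrix, both needed for normal sperm head shape in mice, and their levels did not follow the same order of mice. Zpbp had log2 levels of 9.10, 9.38, 9.20 and 9.54 in DEHP mice 1 to 4, against 9.68, 9.28, 9.24 and 9.42 in vehicle mice 1 to 4. Vehicle mouse 1 was the highest and DEHP mouse 1 the lowest. The pair ratios were -0.18, 0.14, -0.22 and -0.14, with a mean of -0.10 ± 0.16 (SD, n = 4 pairs), a fold of 0.933, a limma interval of 0.818 to 1.06 and an adjusted p of 0.907. Its probe spans 2884 bases in mm7, at chr11:11367314-11370197 on the minus strand.

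Zpbp2 had log2 levels of 16.45, 16, 16.18 and 16.39 in DEHP mice 1 to 4, against 16.11, 16.42, 16.27 and 16.26 in vehicle mice 1 to 4. DEHP mice 1 and 2 were the highest and the lowest of the 8, and vehicle mouse 1 was the second lowest. With loess and background correction, it was the only one of the 9 genes whose SD over the DEHP mice, 0.203, exceeded that over the vehicle mice, 0.127. Pair ratios of 0.028, -0.27, -0.076 and 0.28 averaged -0.0077 ± 0.23 (SD, n = 4 pairs), a fold of 0.995 with a limma interval of 0.836 to 1.18 and an adjusted p of 0.994.

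Izumo1 encodes the sperm membrane protein that binds the egg receptor Juno, an encounter required for fusion in mice. Its log2 levels were 8.47, 8.56, 8.47 and 8.54 in DEHP mice 1 to 4, against 9.21, 8.19, 8.40 and 8.40 in vehicle mice 1 to 4. The 4 DEHP mice lay close together, and vehicle mouse 1 was above the other 7 mice. Pair ratios were 0.28, 0.16, 0.071 and -0.67, the last from the pair that holds vehicle mouse 1 and at the percentile 2 of all probes in pair 4. The mean was -0.041 ± 0.43 (SD, n = 4 pairs), a fold of 0.972 with a limma interval of 0.716 to 1.32 and an adjusted p of 0.983, and without pair 4 the mean was 0.17. Without background correction, the DEHP mice lay further apart, with log2 levels of 8.04, 8.26, 8.08 and 8.23 in DEHP mice 1 to 4. Vehicle mice 1 to 4 then had 8.91, 7.76, 7.85 and 8.00.

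**Figure D3:**
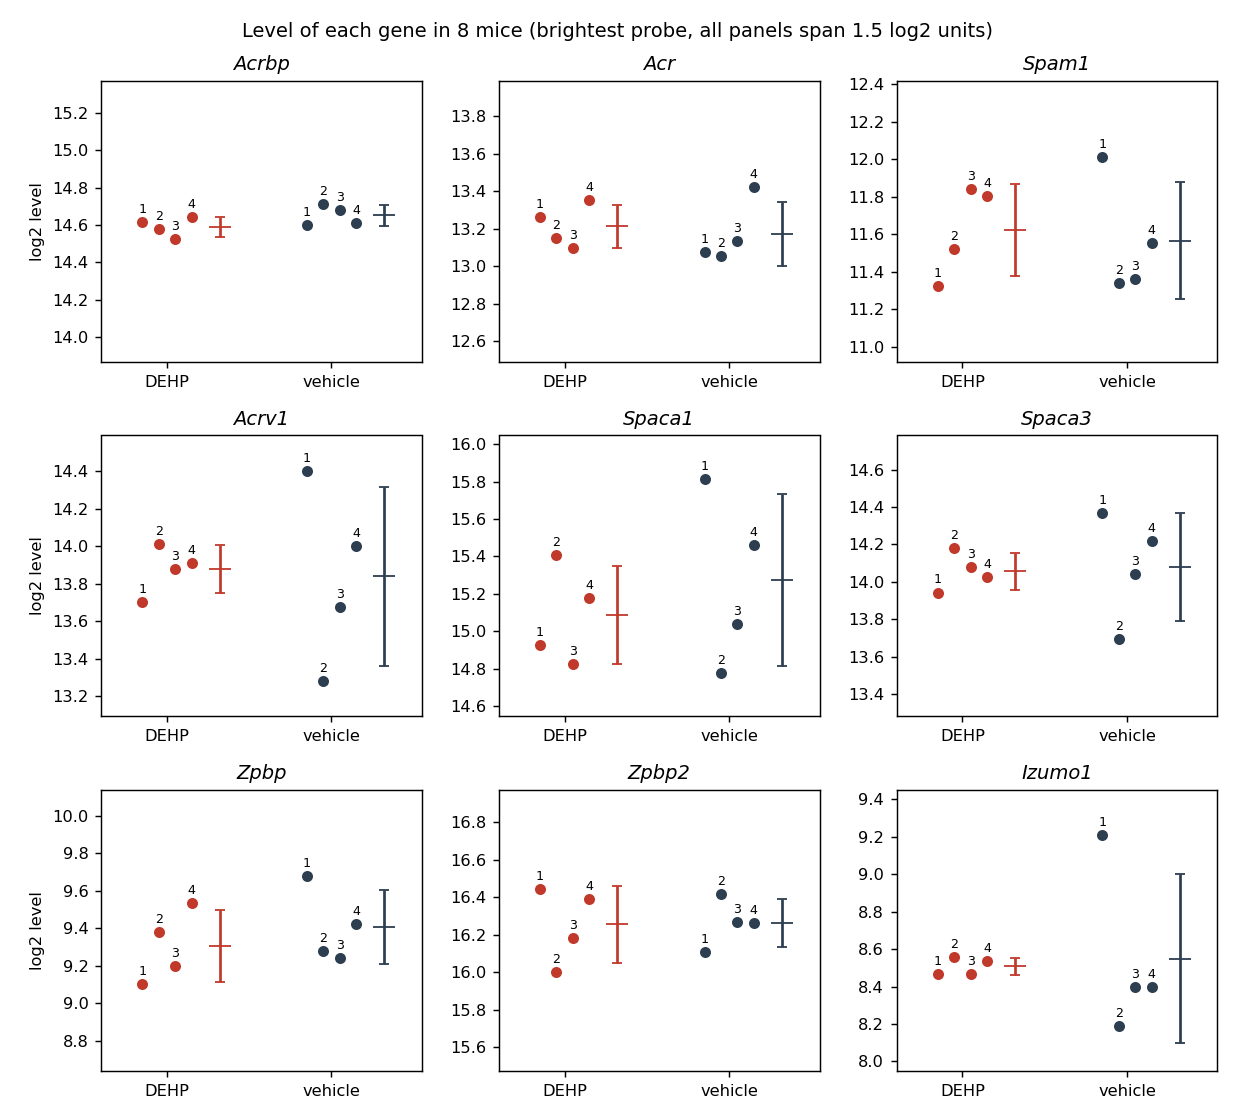
Log2 level (y axis) of the brightest probe of each gene in the 4 DEHP mice (red) and the 4 vehicle mice (dark blue); numbers are mouse numbers, bars are the mean ± SD of each group, and each panel spans the same number of log2 units. Vehicle mouse 1 is the highest point for Spam1, Acrv1, Spaca1, Spaca3, Zpbp and Izumo1, and the DEHP mice lie within the vehicle range for Acr, Acrv1, Spaca1, Spaca3 and Izumo1.

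Taken over the mice without pairing, the groups overlapped for 9 of 9 genes, while 1.8% of all probes had groups that did not overlap (0.761% higher and 1.04% lower in DEHP). An exact 2-sided permutation test of the difference of group means, which with 4 against 4 mice can reach no lower than 0.0286, gave a p of 0.200 for Acrbp, 0.457 for Zpbp and 0.486 for Spaca1. For the other 6 genes the exact p was 0.686 to 1.000. Neither the paired nor the unpaired comparison separated DEHP from vehicle for any of the 9 genes.

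The mice differed among themselves, and for most of the genes the vehicle mice differed more than the DEHP mice did. The SD over vehicle mice was above that over DEHP mice for 8 of 9 genes, against 52.5% of all probes, although it was only 1.05 times as large for Acrbp and 1.02 times for Zpbp, and the other Acrbp probe had the larger SD over DEHP mice, 0.249 over DEHP mice and 0.119 over vehicle mice. It was at least 2 times as large for 3 of 9 genes, against 15.2% of all probes. For Izumo1 the SD was 0.046 over DEHP mice and 0.450 over vehicle mice, for Acrv1 it was 0.129 over DEHP mice and 0.477 over vehicle mice, and for Spaca3 it was 0.099 over DEHP mice and 0.289 over vehicle mice (n = 4 mice each). Without vehicle mouse 1, the vehicle SD was 0.120 for Izumo1 and the vehicle SD was the larger for 5 of 9 genes. Without vehicle mouse 2, the vehicle SD was 0.162 for Spaca3 and the vehicle SD was the larger for 7 of 9 genes. No test of these spreads was made, and that of Izumo1 depends on background correction, without which its DEHP levels lay further apart. Vehicle mouse 1 was the highest of the 8 mice for 6 of 9 genes, against 20.9% of all probes, and for 6 of 9 in each dye taken alone. Vehicle mouse 2 was the lowest for 5 of 9 genes, against 12.4% of all probes, in Cy3 for 5 and in Cy5 for 3. The 6 genes with vehicle mouse 1 on top are those that followed each other across the mice, as given next. The counts in this paragraph are therefore not independent of one another.

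Across the 8 mice, 6 of the genes followed each other, with an r of 0.538 or more between any of them. These 6 were grouped after r was seen, and r without vehicle mouse 1, the highest mouse for all 6, was not computed. The likeness of each gene to the median profile of the 9 was a Pearson r of 0.962 for Acrv1, 0.931 for Spaca1, 0.904 for Spaca3, 0.902 for Izumo1, 0.850 for Zpbp and 0.784 for Spam1. Acr had an r of 0.156, Acrbp -0.412 and Zpbp2 -0.568. For Acrbp and Zpbp2 the order of the mice changed with median centring in place of loess, under which r was not computed. Among the 36 pairs of genes, r ran between -0.742 and 0.964 with a median of 0.171, and the highest was that of Acrv1 with Spaca3. These are descriptions over 8 mice whose levels share arrays and normalisation, and each gene is itself part of the median profile.

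The median profile, with each gene centred on its own mean, was -0.13, 0.025, -0.074 and 0.054 in DEHP mice 1 to 4, against 0.32, -0.26, -0.11 and 0.066 in vehicle mice 1 to 4. Among 16985 other genes compared with it over the 8 mice, Akap14, an anchoring protein of the sperm tail, had the highest Pearson r, 0.986. It was followed by Emd, which encodes the nuclear envelope protein emerin, with 0.982, and by a transcript named only by an Ensembl number with 0.975. Rhox5, a homeobox gene used here as a Sertoli cell marker, had 0.973, and Amer2, listed on the array as 2600011E07Rik, had 0.972. None of these 5 was chosen for its difference between DEHP and vehicle, and their mean log2 ratios ran between -0.14 and -0.0043. With 16985 genes searched over 8 mice, the highest r values are high by selection, and shared regulation was not tested.

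Summed marker levels of the captured cell types also differed between mice. Levels were summed before the log was taken, so the brightest markers weigh most and a sum does not describe each marker. Mean log2 intensity ran from 7.06 (Gata1) to 13.75 (Cst9) among Sertoli markers. Among elongating spermatid markers it ran from 7.15 (Car4) to 17.93 (Prm2), and the brightest Leydig marker was Fdx1 with 13.97. The summed level of the 22 Sertoli markers above background was 15.92 to 16.28 in DEHP mice and 15.70 to 16.17 in vehicle mice on the log2 scale, with vehicle mouse 2 the lowest of the 8. That of the 18 elongating spermatid markers was 19.80 to 20.21 in DEHP mice and 19.84 to 20.25 in vehicle mice, with vehicle mouse 2 the highest. For the 18 round spermatid markers it was 18.33 to 18.51 in DEHP mice and 18.43 to 18.58 in vehicle mice, with vehicle mice 1 and 2 the highest, and for the 9 Leydig markers above background it was 14.36 to 15.03 in DEHP mice and 14.44 to 14.93 in vehicle mice. The part of the captured cell mix in the levels of the acrosome genes was not tested. Marker genes called between DEHP and vehicle numbered 0 in each of these lists.

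By pair, the median log2 ratio of the 9 genes was 0.15, 0.14, -0.12 and -0.21 in pairs 1 to 4, with 6, 7, 2 and 3 of 9 genes above 0. Over all probes, the medians of pairs 1 to 4 were 0.00083, -3.8e-05, -0.0070 and 0.0017, with SDs of 0.24, 0.13, 0.23 and 0.27. The medians by pair were not examined with median centring in place of loess. Each slide held the arrays of 1 dye orientation, so slide and dye cannot be told apart. With DEHP in Cy5 on slide 1, the medians of pairs 1 to 4 were 0.022, 0.054, -0.25 and -0.41, and with DEHP in Cy3 on slide 2 they were 0.11, 0.27, 0.0012 and -0.12. Pairs 1 and 2 were above pairs 3 and 4 in both orientations, and pair 3 with DEHP in Cy3 was close to 0. The sign was the same in both orientations in 4 of 4 pairs for Acrv1 and the brightest Spaca1 probe, in 3 for Zpbp2, Spam1 and Izumo1, in 2 for Acr, Spaca3 and Zpbp, and in 0 for Acrbp. For Acrv1, however, pair 3 with DEHP in Cy3 was at -0.00023, too close to 0 for its sign to count. The other Spaca1 probe differed in sign in pair 1, at -0.097 on the array with DEHP in Cy5, against 0.080 on that with DEHP in Cy3.

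Other genes of the acrosome and of fusion gave the same outcome at the threshold. Across 4 lists, 54 of 62 listed genes were above background, 0 of 54 passed the adjusted test, and 3 of 54, or 5.56%, had an unadjusted p under 0.05, beside 4.59% of all probes. The mean ratio was above 0 for 21 of 54 genes, or 38.9%, against 48.9% of all probes, the share beside which the counts per list below also stand. The signs in these lists were not examined with median centring in place of loess, so no direction is given for them. None of the lists contains any of the 9 genes.

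The first list holds genes for building the acrosome from Golgi vesicles. Of its 15 genes 14 were above background, 0 were called, 3 had a mean ratio above 0, and the median was -0.080. Smap2, a regulator of clathrin-dependent vesicle traffic, had pair ratios of 0.33, -0.010, 0.11 and 0.30, with a mean of 0.18 ± 0.16 (SD, n = 4 pairs; limma unadjusted p = 0.0558, adjusted p = 0.902). Vps54, a subunit of the Golgi tethering complex that is mutated in wobbler mice, had -0.21, 0.041, -0.14 and -0.61. The 2 brightest of the list, Spata16, a Golgi protein of spermatids, and Actl7a, an actin-like protein of the sperm head, had means of -0.00086 ± 0.24 and 0.020 ± 0.18.

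The second list holds contents of the acrosome and of the sperm surface, of which 21 of 22 genes were above background, 0 were called and 12 had a mean ratio above 0, with a median of 0.019. Crisp2, a cysteine-rich secretory protein of the acrosome and tail, was higher in DEHP in all 4 pairs, with ratios of 0.28, 0.096, 0.47 and 0.16 and a mean of 0.25 ± 0.17 (SD, n = 4 pairs; limma unadjusted p = 0.0206, adjusted p = 0.902). Pcsk4, a proprotein convertase of germ cells, was among the 2 genes of the list below 0 in all 4 pairs, with a mean of -0.092 ± 0.043. Spink2, a protease inhibitor of the acrosome, and Dkkl1, an acrosomal relative of the Dickkopf proteins, were the brightest, with means of 0.017 ± 0.075 and 0.054 ± 0.19. Pkdrej was not above background.

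The third list holds further genes of sperm-egg fusion. Of 13 listed genes, 11 were on the array and 10 above background, 0 were called, and 1 had a mean ratio above 0, with a median of -0.093. That one was Llcfc1, a small protein that mouse sperm need for fusion, with pair ratios of 0.60, 0.20, 0.22 and -0.23. Dcst1, a sperm membrane protein, had a mean of -0.19 ± 0.16 (SD, n = 4 pairs; limma unadjusted p = 0.0495, adjusted p = 0.902), Tmem81 had -0.11 ± 0.15, and Izumo3, which is needed for acrosome formation in mice, had -0.0013 ± 0.38. The median of the 10 genes was -0.020, 0.025, 0.018 and -0.38 in pairs 1 to 4. The lowest value came from the pair with vehicle mouse 1, as it did among the 9 genes and the acrosomal contents, at -0.17. The lists of acrosome biogenesis and of exocytosis had their highest medians in that pair, 0.11 and 0.12. Pair 4 also had the largest SD over all probes, 0.27.

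The last list holds the machinery of exocytosis, of which 9 of 12 genes were above background, 0 were called and 5 had a mean ratio above 0, with a median of 0.029. Napa, the adaptor through which the ATPase NSF takes apart SNARE complexes, was below 0 in all 4 pairs, with ratios of -0.14, -0.13, -0.18 and -0.10 and a mean of -0.14 ± 0.033 (SD, n = 4 pairs; limma unadjusted p = 0.0185, adjusted p = 0.902). Rims1, a scaffold of regulated secretion, was above 0 in all 4 pairs, with a mean of 0.057 ± 0.045. The SNARE gene Stx2, named Epim on the array, had a mean of -0.029 ± 0.31. Snap25, Syt6 and Syt8 were not above background.

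**Figure D4:**
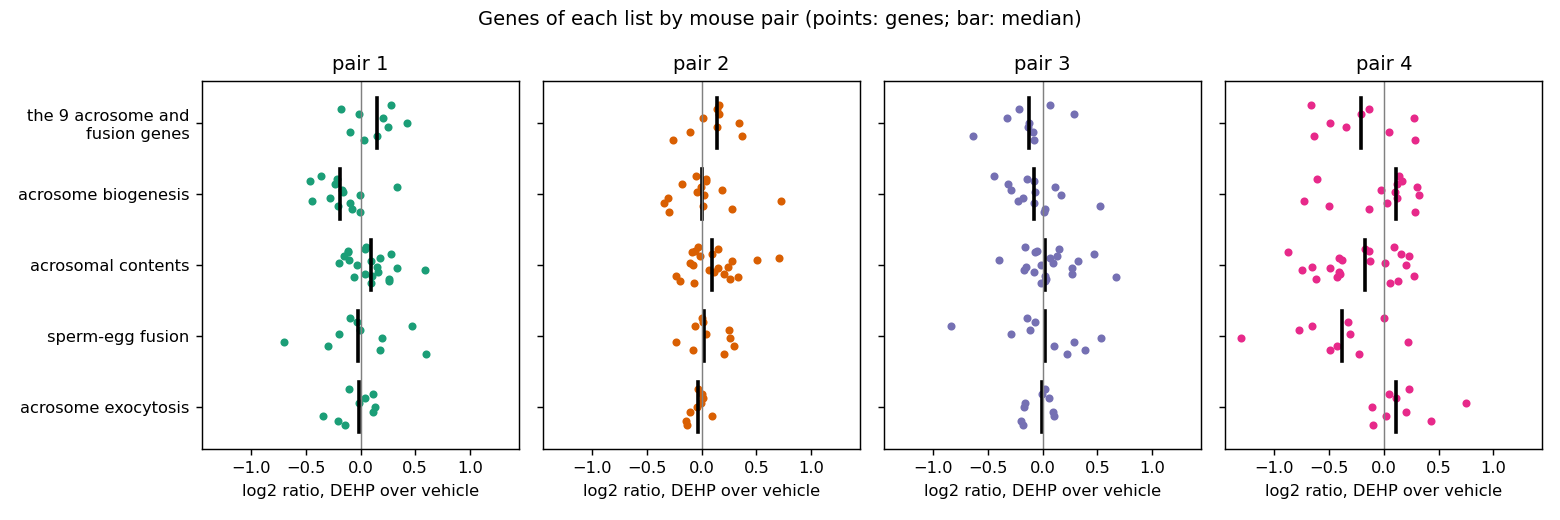
Log2 ratio of DEHP over vehicle (x axis, one panel per mouse pair) for the genes of 5 lists (rows); points are genes at their brightest probe and black bars are medians. The medians of the 9 genes are 0.15, 0.14, -0.12 and -0.21 in pairs 1 to 4, and the sperm-egg fusion list has its lowest median, -0.38, in pair 4. The acrosomal contents list also has its lowest median there, -0.17, while acrosome biogenesis, 0.11, and exocytosis, 0.12, have their highest.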

How the data were processed

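RNA of 4 DEHP and 4 vehicle mice was measured on 8 Agilent arrays of 2 colours. Spot intensity, as a foreground mean and a background median, was deposited by the authors as scanned (design 014868, probe positions in mm7, Feature Extraction 9.5.1.1, per the file headers). That software also wrote a log10 ratio of Cy5 over Cy3 after background subtraction and dye normalisation, per the file headers. A further file of log2 ratios was deposited, and limma is named in the submitters' processing notes. Its normalisation and filter are not given in the sources used here. Its direction, DEHP over vehicle, and its match to spots were found by setting it against the scanner values, and its column medians were -0.0022 to 0.012. The caps came from independent mice, 1 per RNA sample, and amplification took 2 rounds, per the labels' protocols.

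Of 45018 spots per array, 1639 were controls. Between 49.8% and 59.5% of spots per channel were well above background, 0 were saturated, and 246 to 331 per array had outlier flags and were left out. Precision is limited by the number of arrays and mice. The background was corrected with normexp (offset 50), loess was run within arrays, and spots of a probe were averaged. Ratios were turned to DEHP over vehicle by the dye labels, and dye-swapped arrays of the same mice were averaged. The pairing is by hybridisation, and the 2 arrays of a pair correlated across probes by 0.539 to 0.717. Probes well above background in at least 4 of 8 channels of a group were kept, 23009 of 41174. The 4 pair means per probe were tested against 0 in limma 3.58.1 (R 4.3.3, statmod 1.5.0, data.table in version 1.17.8), 2-sided, with Benjamini-Hochberg adjustment and a threshold of 0.05. Levels per mouse are separate channels after loess and Aquantile, averaged over the 2 dyes.

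Genes are represented by their brightest probe above background, and symbols were updated through RefSeq's table of GRCm38.p6, with 23082 probes matched by accession, 6582 by symbol, 3073 by synonym and 8437 unmatched. Named were all 9 genes, per related list the 2 genes with the smallest unadjusted p and the 2 brightest, and the 5 genes most like the median profile. The members and lists were chosen with earlier results of these data known. Alternatives covered background correction, normalisation, the filter, dye orientation, pairing, array weights, the probe per gene, pairs left out and the authors' ratios, and, chosen after seeing the data, mice left out of the SDs.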

Additional observations from a re-analysis of the deposited data

Results flagged for a closer look

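Among 33 sets of 4 values examined for 1 value far from the rest (by Dixon's 95% criterion), 2 held such a value, and chance gives about 1 in 20. For Acrbp, the ratio of pair 4, 0.045, stood apart from the other 3 pairs, which were between -0.10 and -0.090. For the other Acrbp probe, the log2 level of vehicle mouse 2, 9.46, stood apart from the other vehicle mice, which were between 9.21 and 9.25.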

How the results depend on the processing

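In the 16 alternative settings with a test (15 for all 9 genes, the authors' deposited ratios for 4), 0 genes passed the adjusted test. Over 17 settings the median of the mean log2 ratios of the genes (-0.024) ran between -0.13, with DEHP in Cy5 alone, and 0.15, with median centring. All 9 genes entered this median except in the authors' deposited ratios, where it was 0.044 over 4 genes. Signs of single genes turned in several settings, in which the cause was not tested. Without background correction, Zpbp2 had 0.0135 and Izumo1 0.0224. With median centring, Acrbp had 0.13, Spaca1 0.0049, Spaca3 0.15 and Zpbp2 0.22. From DEHP in Cy5 alone, Acrv1 had -0.083 and Spam1 -0.059. From DEHP in Cy3 alone, Acr had -0.12, Acrbp 0.12 (other probe -0.049), Spaca3 0.20, Zpbp 0.098, Zpbp2 0.0042 and Izumo1 0.086. With array weights, Spaca1 had 0.065 (other probe 0.049), Spaca3 0.068 and Izumo1 0.092. Izumo1 had 0.0414 by Agilent's processed ratios and 0.0411 by the authors' deposited ratios, and Acrbp 0.010 as the mean over its probes. Leaving out each pair in turn, values ran between -0.034 and 0.17 for Acr, -0.092 and 0.21 for Acrv1, -0.11 and 0.083 for Spaca3, -0.10 and 0.078 for Zpbp2, -0.15 and 0.17 for Izumo1, -0.020 and 0.14 for Spam1, -0.37 and -0.039 for Spaca1, -0.18 and -0.060 for Zpbp, and -0.098 and -0.049 for Acrbp. With the mouse pair as a replicate block and a dye term over the 8 arrays (estimated correlation 0.819), 0 genes passed, as without pairing; 1535 and 860 probes had an unadjusted p under 0.05, against 1057. That count was 1611 without the filter, 1718 from DEHP in Cy5 alone, 2432 from DEHP in Cy3 alone, 501 to 1931 with a pair left out, and 704 in the authors' deposited ratios. The precision that 4 pairs give is shown by the limma intervals, the widest of which, for Spaca1, was 0.606-fold to 1.27-fold.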

Other observations

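Cd46, which is a complement regulator found on the inner acrosomal membrane of mouse sperm, was chosen after its values were seen. Its pair ratios were 0.20, 0.26, 0.53 and -1.31 in pairs 1 to 4, with a mean of -0.080 ± 0.83 (SD, n = 4 pairs; limma adjusted p = 0.982). Pair 4, which holds vehicle mouse 1, was the only one below 0. Of the 10 further fusion genes, 4, 7, 5 and 2 were above 0 in pairs 1 to 4, and no test of this difference was made. In pair 4, 9 of 14 acrosome biogenesis genes, 7 of 9 exocytosis genes and 8 of 21 genes of acrosomal contents were above 0. Over all probes, the median of pair 4 was 0.0017 and its SD, 0.27, was the largest of the pairs.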
